A study of Mus musculus with 70 samples.

Results

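The data described here are the difference between 2 effects on ribosome-bound microglial RNA, that of lipopolysaccharide (LPS) and that of Poly(I:C), each measured 24 hours after an intraperitoneal injection and each set against its own saline controls. The libraries were chosen by their labels, which mark them as RiboTag pulldowns of the LPS or the Poly(I:C) study, and they number 13 of the 70 in the series. LPS RiboTag had 3 libraries (replicates 1, 3 and 4), saline RiboTag of the LPS study 4, Poly(I:C) RiboTag 3 and saline RiboTag of the Poly(I:C) study 3. All mice, controls included, were Cx3cr1CreERT2-IRES-eYFP/+; Rpl22HA/+ double heterozygotes given tamoxifen and rested for a week, so that cells using the Cx3cr1 promoter carried an HA-tagged ribosomal protein RPL22. RNA bound to tagged ribosomes was pulled down from homogenates of the PBS-perfused forebrain with anti-HA antibodies. The Cx3cr1 promoter is also used by macrophages at the borders of the brain, and each mouse carried 1 Cx3cr1 copy with the Cre insertion. The labels give no age or sex for these mice, and p-values measure the spread between the libraries of a group, which the series describes as separate animals. Xist was between 0.0333 and 0.155 RPKM and the Y-linked Ddx3y between 5.7 and 8.4 RPKM in the 13 libraries, a male pattern in every one.

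LPS is a component of the outer membrane of Gram-negative bacteria that is sensed by Toll-like receptor 4, with CD14 and MD-2 (Ly96) as co-receptors, and that acts through MyD88 and NF-kB and, by a second adaptor, through interferon regulatory factors. Poly(I:C) is a synthetic double-stranded RNA sensed by Toll-like receptor 3 in endosomes and by MDA5 (Ifih1) and RIG-I (Ddx58) in the cytosol, pathways that lead to type I interferon. Secreted interferon signals through a factor that holds STAT2 and IRF9 to a large set of antiviral genes. Microglia, the macrophages of the brain parenchyma, express receptors of both pathways, and cytokines made in the periphery can reach them too.

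The libraries held between 27.3 M and 47.2 M reads assigned to genes (M, 1e6 reads). They differed in how much microglial RNA they held. The mean log2(RPKM + 1) of 23 homeostatic microglia genes was 5.51, 5.92 and 5.61 in LPS libraries 1, 3 and 4, against 6.01, 6.21, 4.80 and 4.93 in their saline libraries 1 to 4. It was 4.29, 4.14 and 4.50 in Poly(I:C) libraries, against 3.88, 3.83 and 3.83 in their saline libraries. Saline libraries 3 and 4 of the LPS study thus stood apart from libraries 1 and 2 of the same group, and every library of the LPS study was above every library of the Poly(I:C) study. The Pearson correlation of log2 values within groups was 0.942 to 0.973 for LPS, 0.896 to 0.980 for its saline, 0.927 to 0.965 for Poly(I:C) and 0.979 to 0.983 for its saline. Between the saline groups 4430 of 13883 genes (31.9%) differed at an adjusted p under 0.05 in limma. The agent and the study cannot be told apart in this design, and each effect was taken within its study. Many list counts are also given without saline libraries 3 and 4 of the LPS study. In that fit of 13932 genes, 1325 rose and 126 fell after LPS, and 1057 rose and 37 fell after Poly(I:C). The Poly(I:C) counts move too because all groups share the estimate of the spread. In the difference 16 genes were called higher and 90 lower. These counts are the background for list counts from that fit. Percentages given as background belong to the fit of all 13 libraries. In such pulldowns fewer tagged cells and less RNA per cell cannot be told apart.

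Saa3, an acute phase protein gene, the chemokine gene Cxcl13 and the interleukin-1 beta gene Il1b had a higher effect of LPS than of Poly(I:C). Antiviral interferon-stimulated genes such as Oasl2 and Oas2 had the higher effect of Poly(I:C). Agent and study cannot be told apart in either case. With limma voom on reads the calls of Saa3, Cxcl13 and Il1b were lost (adjusted p of 0.244, 0.241 and 0.365). With the replicate number as a block in limma those of Oasl2 and Oas2 were lost (adjusted p of 0.272 and 0.131). Tests covered the 13883 genes that averaged 1 RPKM or more over the 13 libraries. In these, 27 (0.194%) had an LPS effect that differed from the Poly(I:C) effect at an adjusted p under 0.05, 12 with the higher LPS effect (0.0864%) and 15 with the lower (0.108%). Effects are differences of mean log2(RPKM + 1), a scale that understates the change of genes near or below 1 RPKM, and were tested by limma with Benjamini-Hochberg adjustment over all genes tested. An unadjusted p under 0.05 was reached by 1171 genes. The median difference over all genes was 0.13, and 0.02 once libraries were scaled by median ratios. That scaling gave 49 called genes, 17 higher and 32 lower, with all 27 among them. Of the 27, 7 were called in each of the 13 fits that left out 1 library (Saa3, Cxcl13, Lcn2, Oasl2, Iigp1, Herc6 and Rnf213), and 13 were not called in at least 1. Counting only fits that tested the gene, 14 were called in every one. Plac8, Gbp4, Oas2, Ddx60, F830016B08Rik, Il1b, Hcar2 and Gm16175 fell below the mean of 1 RPKM in some of these fits. That happened when a library of the group where they were high was left out. These genes had thus passed the filter through that group. So had Saa3, Cxcl13, Lcn2, Ccl5, Cd55, Iigp1 and Rsad2, which averaged under 1 RPKM over the libraries outside the group where they were highest. Calls in all 13 fits therefore do not free Saa3, Cxcl13, Lcn2 and Iigp1 of this selection. Without saline libraries 3 and 4 of the LPS study 106 genes were called, 16 higher and 90 lower, again with all 27. Leaving out a single library gave 12 calls without LPS library 3, 15 without LPS library 4, 12 and 16 without Poly(I:C) libraries 1 and 2, and 15, 15 and 17 without saline libraries 1, 2 and 3 of the Poly(I:C) study.

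Of the 12 genes with the higher LPS effect, 11 rose after LPS and 2, Saa3 and Ccl5, also rose after Poly(I:C). The predicted gene Gm20677 did not pass the test after LPS (log2 difference -0.01) and fell by 1.08 after Poly(I:C). Of the 15 genes with the lower LPS effect, 14 rose after Poly(I:C) and 7 of these rose after LPS as well. The predicted gene Gm27348 fell by 0.65 after LPS and had 0.38 after Poly(I:C), which did not pass the test. No gene rose after 1 agent and fell after the other in the single tests. Predicted or clone-named genes made up 5 of the 27.

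**Figure D1:**
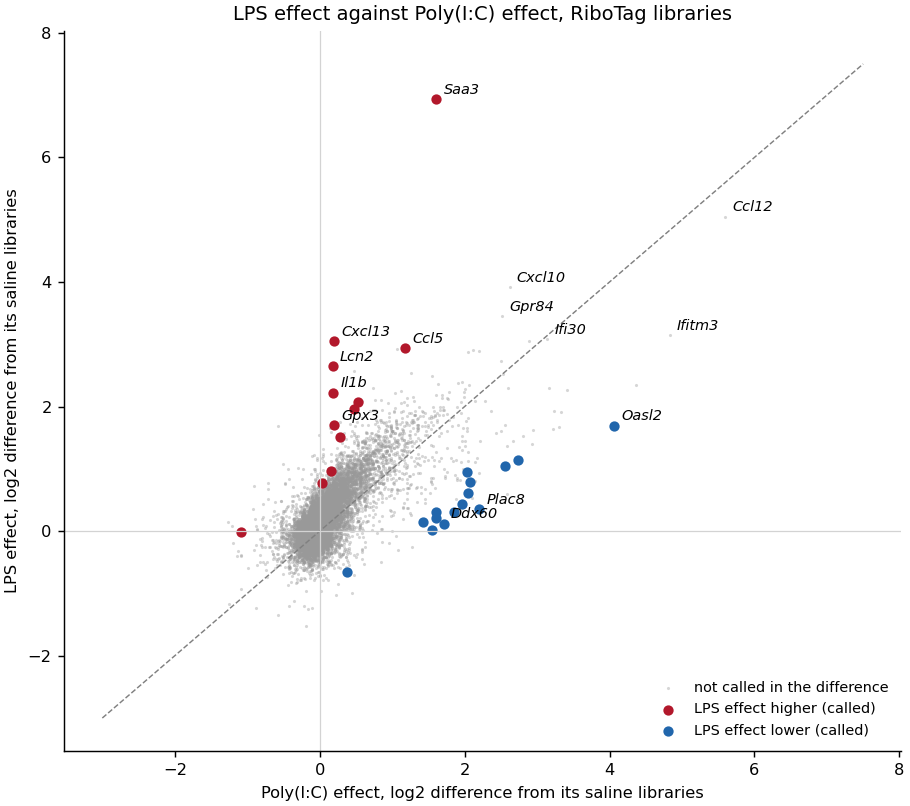
Each point is 1 of 13883 genes, with its Poly(I:C) effect on the horizontal axis and its LPS effect on the vertical axis, both as log2 differences from the saline libraries of the same study. The dashed line marks equal effects, the 12 red points are genes called with the higher LPS effect and the 15 blue points those with the lower one. Saa3 lies far above the line at 6.93 after LPS and 1.61 after Poly(I:C), and Oasl2 below it at 1.69 and 4.06.

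Saa3, which encodes serum amyloid A3, an acute phase apolipoprotein made by macrophages and other cells in inflammation, had the greatest difference of the called genes (ENSMUSG00000040026, mm10 chr7:46711998-46715676). It stood at 108, 106 and 194 RPKM in LPS libraries, against 0.148, 0, 0.172 and 0 RPKM in their saline libraries. In Poly(I:C) libraries it was at 1.32, 2.49 and 2.69 RPKM, against 0, 0 and 0.0533 RPKM in their saline libraries. All LPS libraries were above all Poly(I:C) libraries, and these were above all saline libraries. The LPS effect was 6.93 ± 0.20 (SE) and the Poly(I:C) effect 1.61 ± 0.22, with adjusted p of 8.87e-10 and 0.000932 in limma. The difference was 5.32 (95% interval 4.67 to 5.97, adjusted p = 2.93e-06).

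Lcn2 encodes lipocalin 2, which binds bacterial siderophores and so withholds iron. Its level was 6.42, 5.11 and 7.68 RPKM in LPS libraries, against 0.1, 0.225, 0.143 and 0.220 RPKM in their saline libraries. Poly(I:C) libraries had 0.106, 0.195 and 0.196 RPKM and their saline libraries 0.0465, 0.0377 and 0.00720 RPKM. Only the LPS group stood above 1 RPKM, and the Poly(I:C) libraries lay within the range of the saline libraries of the LPS study. The LPS effect was 2.65 and the Poly(I:C) effect 0.18 (adjusted p = 0.690), a difference of 2.47 ± 0.16 (SE, adjusted p = 6.28e-06, limma). Of the 13 tested members of a list of acute phase and metal handling genes, Saa3 and Lcn2 were called higher in the difference (background 0.0864%). Both had passed the filter through the LPS group, so this count does not test the list. None was called lower (background 0.108%), and the median was 0.58 against 0.13 over all genes. Ceruloplasmin (Cp), a copper-carrying ferroxidase, had a difference of 0.58 (0.32 to 0.83) that missed the threshold (adjusted p = 0.1).

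The chemokines split by gene. Cxcl13, a B cell attractant, was at 6.76, 9.60 and 7.62 RPKM in LPS libraries, against 0.0336, 0.150, 0.0711 and 0.0492 RPKM in their saline libraries, and at 0.0546, 0.0686 and 0.410 RPKM in Poly(I:C) libraries, against 0.0208, 0 and 0.0322 RPKM in theirs. The difference was 2.85 (2.46 to 3.25, adjusted p = 6.28e-06), and the Poly(I:C) effect of 0.20 did not pass the test. Ccl5, a T cell attractant, rose after both agents, by 2.94 after LPS and 1.18 after Poly(I:C), with a difference of 1.76 ± 0.30 (SE, adjusted p = 0.0371). That call held in 3 of the 13 fits that left out 1 library. Ccl5 averaged 8.66 ± 2.53 RPKM in LPS libraries (SD, n = 3) and 0.230 ± 0.148 RPKM in their saline libraries (n = 4), and 1.76 ± 0.772 RPKM in Poly(I:C) libraries and 0.180 ± 0.0359 RPKM in theirs (n = 3 each). Cxcl16, a scavenger receptor and chemokine, rose by 2.11 after LPS and had 0.84 after Poly(I:C), with a difference of 1.28 that missed the threshold (adjusted p = 0.325). Over the 14 tested chemokines 2 were called higher in the difference (background 0.0864%) and none lower (background 0.108%). Cxcl13 and Ccl5 had passed the filter through the LPS group, so this count does not test the list. Of the 14, 9 rose after LPS (background 18.6%) and 5 after Poly(I:C) (background 3.05%).

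Among inflammatory cytokines and NF-kB targets, Il1b, which encodes the pyrogenic cytokine interleukin-1 beta, was the 1 of 17 tested members called in the difference (background 0.194%). The count does not test the list, because Il1b had passed the filter through the LPS group. It was at 4.19, 5.65 and 5.36 RPKM in LPS libraries, against 0.282, 0.468, 0.345 and 0.116 RPKM in their saline libraries. Poly(I:C) libraries held 0.212, 0.295 and 0.114 RPKM, against 0.0639, 0.0518 and 0.0495 RPKM in their saline libraries. All LPS libraries were above all others, and the Poly(I:C) libraries, though above their own saline, were no higher than the highest saline library of the LPS study. The difference was 2.03 (1.66 to 2.39, adjusted p = 8.4e-05). In this list 11 genes rose after LPS (background 18.6%) and 3 after Poly(I:C) (background 3.05%), and the median difference was 0.35. After Poly(I:C) 5 of 19 tested rose when saline libraries 3 and 4 of the LPS study were left out (1057 of 13932 over all genes). Socs3, a feedback inhibitor of cytokine receptors, and Nfkbia, the NF-kB inhibitor, had differences of 0.74 and 1.03 with adjusted p of 0.131 and 0.190. Tnf was below the mean of 1 RPKM and was not tested. Its values were 0.581, 1.28 and 1.00 RPKM in LPS libraries, against 0.144, 0.192, 0.0508 and 0.0235 RPKM in their saline libraries, and 0.156, 0.123 and 0.0838 RPKM in Poly(I:C) libraries, against 0.0149, 0.0517 and 0 RPKM in theirs.

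Further named genes had the higher LPS effect on the log2(RPKM + 1) scale. Hcar2, a receptor for nicotinic acid and beta-hydroxybutyrate, averaged 4.06 ± 1.01 RPKM in LPS libraries (SD, n = 3), 0.193 ± 0.173 RPKM in their saline libraries (n = 4), 0.482 ± 0.0861 RPKM in Poly(I:C) libraries and 0.0239 ± 0.0251 RPKM in theirs (n = 3 each). Its difference was 1.54 on that scale (adjusted p = 0.00499, limma). With limma voom on reads Hcar2 had 4.67 after LPS and 4.95 after Poly(I:C), a difference of -0.28 (adjusted p = 0.984). Gpx3, a secreted glutathione peroxidase, and Emp3, a membrane protein, rose after LPS by 1.70 and 1.51 and did not pass the test after Poly(I:C), with differences of 1.49 and 1.23. Cd55, which encodes decay-accelerating factor, an inhibitor of complement convertases, averaged 2.25 ± 0.0344 RPKM in LPS libraries against 0.902 ± 0.0819 RPKM in their saline libraries, and 0.867 ± 0.00536 RPKM in Poly(I:C) libraries against 0.823 ± 0.0311 RPKM in theirs (SD, n = 3, 4, 3 and 3). Its difference of 0.74 (0.50 to 0.98) had an adjusted p of 0.0129. Abhd11, a mitochondrial hydrolase, had a difference of 0.82 (adjusted p = 0.0456). Emp3 and Abhd11 were each called in 1 of the 13 fits that left out 1 library. Clec4a1, a C-type lectin, and Phb, prohibitin, came next by p among genes of this direction and were not called, with differences of 1.43 and 0.81 (adjusted p = 0.0539 each).

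The calls in this direction moved with the scale used. This held also for genes with controls not near 0, such as Abhd11, with saline means of 1.13 RPKM (LPS study) and 1.47 RPKM (Poly(I:C) study). The cause was not tested. With limma voom on the recovered reads, which has no pseudocount of 1 RPKM, none of the 12 was called, and the adjusted p ran from 0.0524 for Cd55 to 0.984 for Hcar2. Voom called no other gene with the higher LPS effect either, and 25 with the lower. Saa3 had 5057, 5639 and 9087 reads in LPS libraries, against 6, 0, 11 and 0 in their saline libraries, and 66, 132 and 125 reads in Poly(I:C) libraries, against 0, 0 and 3 in theirs. On that scale its LPS effect was 11.42, its Poly(I:C) effect 6.56 and the difference 4.85 (adjusted p = 0.244), the Poly(I:C) value resting on 3 reads in its saline libraries. With a pseudocount of 0.1 RPKM, Saa3, Cxcl13 and Lcn2 were called, with adjusted p of 0.00875, 0.0225 and 0.0126, and the other 9 were not.

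**Figure D2:**
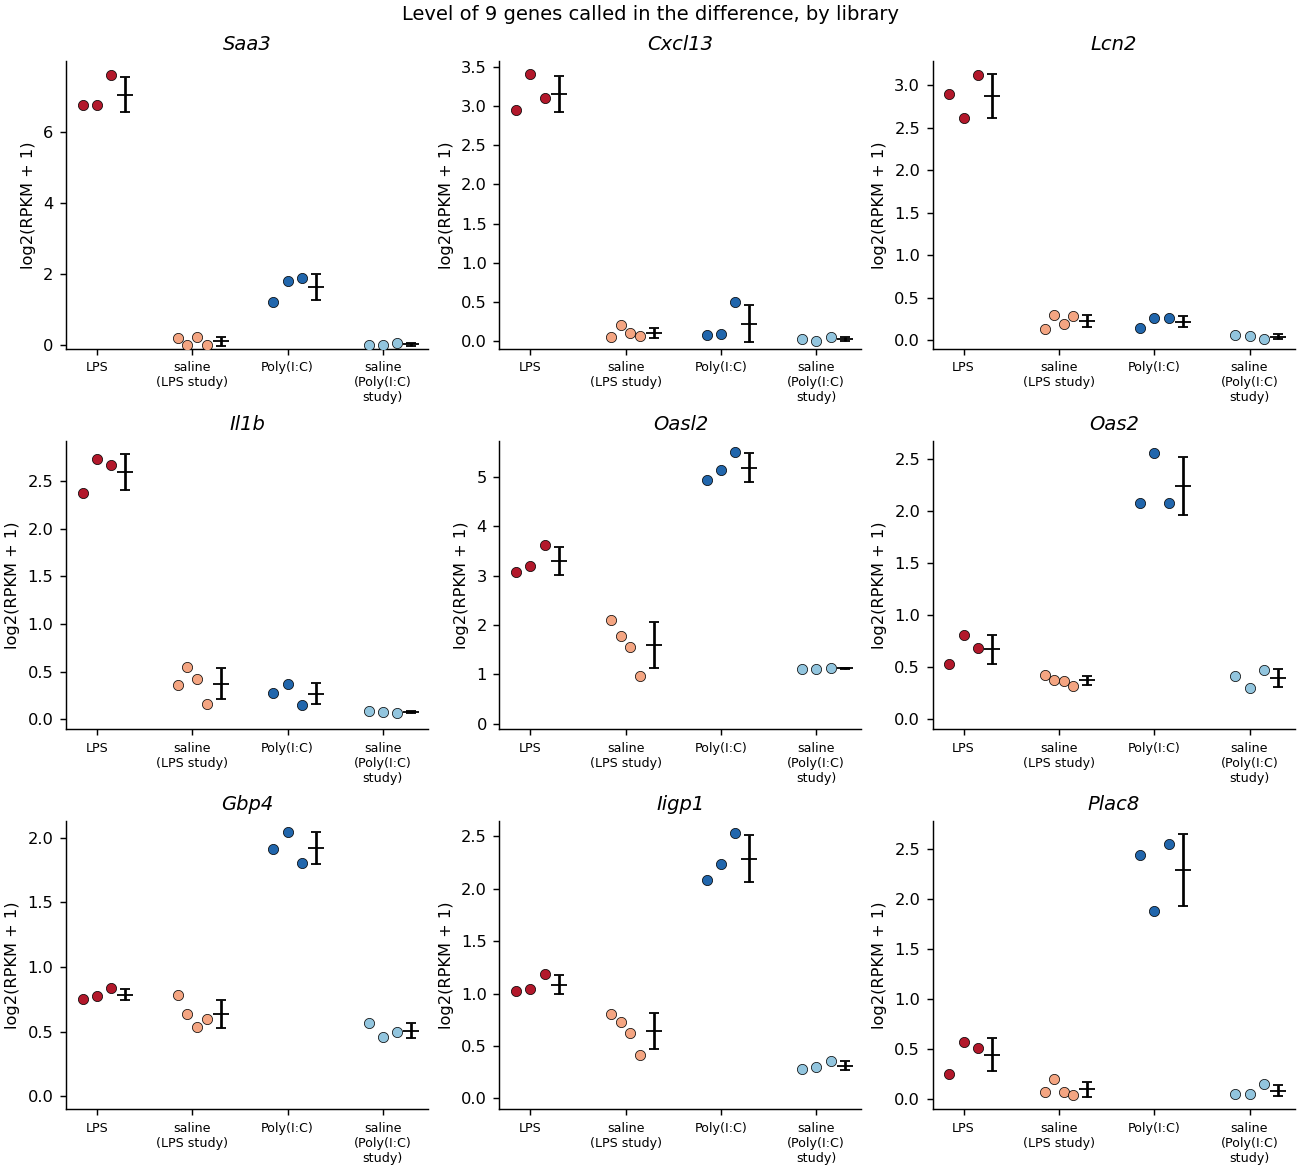
Points are single libraries on the scale log2(RPKM + 1), in the order LPS, its saline, Poly(I:C) and its saline, and the bars beside them give the mean and SD of each group. For Saa3, Cxcl13, Lcn2 and Il1b the LPS libraries are above all others, and for Oasl2, Oas2, Gbp4, Iigp1 and Plac8 the Poly(I:C) libraries are.

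The genes with the lower LPS effect included members of the 2'-5'-oligoadenylate synthetase family and of interferon signalling. Oasl2, an oligoadenylate synthetase-like antiviral protein (ENSMUSG00000029561, mm10 chr5:114896936-114912234), was at 7.43, 8.17 and 11.2 RPKM in LPS libraries, against 3.27, 2.41, 1.95 and 0.966 RPKM in their saline libraries. It was at 29.4, 34.0 and 44.0 RPKM in Poly(I:C) libraries, against 1.17, 1.17 and 1.20 RPKM in theirs. Both treated groups were above their saline groups without overlap, and the Poly(I:C) libraries were above the LPS libraries. The LPS effect was 1.69 ± 0.23 and the Poly(I:C) effect 4.06 ± 0.24 (SE), a difference of -2.37 (-3.08 to -1.65, adjusted p = 0.00814, limma).

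Oas2, the synthetase whose product activates RNase L, was at 0.441, 0.745 and 0.598 RPKM in LPS libraries, against 0.342, 0.291, 0.288 and 0.242 RPKM in their saline libraries, and at 3.23, 4.91 and 3.24 RPKM in Poly(I:C) libraries, against 0.331, 0.229 and 0.382 RPKM in theirs. The LPS effect of 0.30 did not pass the test (adjusted p = 0.107), the Poly(I:C) effect was 1.85, and the difference was -1.55 ± 0.18 (SE, adjusted p = 0.00135). Stat2, a subunit of the interferon-activated factor, was at 3.95, 4.44 and 4.56 RPKM in LPS libraries, against 3.81, 2.70, 2.97 and 3.70 RPKM in their saline libraries, and at 9.67, 12.8 and 8.46 RPKM in Poly(I:C) libraries, against 2.98, 2.52 and 2.58 RPKM in theirs. It had 0.31 after LPS (adjusted p = 0.141) and rose by 1.60 after Poly(I:C), a difference of -1.28.

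Further antiviral genes followed. Rsad2 (viperin, which makes a chain-terminating nucleotide), Ddx60 (a helicase), Herc6 (the mouse ligase for ISG15), Rnf213 (a very large ubiquitin ligase) and Xaf1 (an apoptosis factor) had differences of -1.44, -1.59, -1.40, -1.28 and -1.08, all called. Of these 5, Rsad2, Rnf213 and Xaf1 rose after LPS, by 0.61, 0.79 and 0.95, and all 5 rose after Poly(I:C), by 1.61 to 2.08. In the 13 fits that left out 1 library, Xaf1 was called in 2, Ddx60 in 3 and Rsad2 in 4. Herc6 and Rnf213 were called in all 13. Interferon-inducible GTPases attack the vacuoles of intracellular pathogens. Iigp1 and Gbp4 were the 2 of 10 tested members called, both lower (background 0.108%), with a median of -0.70 over the 10. Both had passed the filter through the Poly(I:C) group, so this count does not test the list. Of the 10, 6 were called lower without saline libraries 3 and 4 of the LPS study (90 of 13932 over all genes), with a median of -1.09. Between the saline groups 8 of the 10 were higher in the LPS study and none lower, with a median of 0.56. The summed level of the 15 listed GTPases was 38 to 44.3 RPKM in LPS libraries and 11.1 to 26.5 RPKM in their saline. It was 40.7 to 49.1 RPKM in Poly(I:C) libraries and 7.11 to 7.5 RPKM in theirs. The part of these control levels in the difference was not tested. Gbp4 was at 0.680, 0.711 and 0.784 RPKM in LPS libraries, against 0.720, 0.552, 0.446 and 0.511 RPKM in their saline libraries, ranges that overlapped. In Poly(I:C) libraries it was at 2.76, 3.14 and 2.50 RPKM, against 0.481, 0.370 and 0.412 RPKM in theirs, and the difference was -1.27 (-1.56 to -0.98, adjusted p = 0.000905). Iigp1 was at 1.04, 1.06 and 1.28 RPKM in LPS libraries, against 0.753, 0.657, 0.542 and 0.336 RPKM in their saline libraries, and at 3.25, 3.72 and 4.78 RPKM in Poly(I:C) libraries, against 0.211, 0.231 and 0.281 RPKM in theirs. It rose after both agents, by 0.44 after LPS and 1.97 after Poly(I:C), a difference of -1.53.

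Over the list of 33 tested interferon response genes, 7 were called lower in the difference (background 0.108%), among them Oasl2, Oas2, Rsad2, Herc6, Stat2 and Xaf1, and none was called higher. Oas2 and Rsad2 had passed the filter through the Poly(I:C) group. The median difference was -1.08, against 0.13 over all genes, and 32 of the 33 had a value below 0. Between the saline groups 14 of the 33 were higher in the LPS study and none lower, with a median of 0.45. Over all 13883 genes 2485 were higher there and 1945 lower. The part of these control levels in the difference was not tested. LPS raised 27 of the 33 with a median effect of 1.18 (background 18.6%), and Poly(I:C) raised 32 with a median of 2.05 (background 3.05%). Ifit1, a sensor of foreign RNA caps, rose by 1.52 after LPS and 2.80 after Poly(I:C), and its difference of -1.28 missed the threshold (adjusted p = 0.0952). Isg15, the ubiquitin-like modifier, rose by 1.53 and 1.97, a difference of -0.44 (-1.15 to 0.26). Irf7, a master factor of type I interferon, was under the mean of 1 RPKM, with 0.804, 0.933 and 0.983 RPKM in LPS libraries, against 0.500, 0.196, 0.431 and 0.356 RPKM in their saline libraries, and 1.80, 2.66 and 2.02 RPKM in Poly(I:C) libraries, against 0.226, 0.150 and 0.366 RPKM in theirs. Without saline libraries 3 and 4 of the LPS study 24 of 34 tested members were called lower in the difference and 22 rose after LPS. Over all 13932 genes of that fit these counts were 90 and 1325. With voom on reads 10 were called lower, with 13 of the 15 genes called lower over all genes kept; Plac8 (adjusted p = 0.0911) and Gm27348 (0.172) were not.

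Plac8, expressed by monocytes, neutrophils and interferon-treated macrophages, had a difference of -1.86 (adjusted p = 0.00135). It was at 0.192, 0.481 and 0.420 RPKM in LPS libraries, against 0.0494, 0.150, 0.0471 and 0.0302 RPKM in their saline libraries, and at 4.41, 2.68 and 4.83 RPKM in Poly(I:C) libraries, against 0.0383, 0.0355 and 0.107 RPKM in theirs. Of 22 genes listed as markers of monocytes and neutrophils, 6 were tested, with Lcn2 called higher (background 0.0864%) and Plac8 lower (background 0.108%). Each had passed the filter through the group where it was high, so these counts do not test the list. The neutrophil genes S100a8 and S100a9 were tested and not called in any effect. Ly6c2, a monocyte surface antigen below the level for testing, was at 0.261, 0.374 and 0.219 RPKM in LPS libraries, against 0.0670, 0.0918, 0.0730 and 0.165 RPKM in their saline libraries, and at 0.191, 0.213 and 0.589 RPKM in Poly(I:C) libraries, against 0.116, 0.165 and 0.0999 RPKM in theirs. Both treated groups were above their saline libraries without overlap. The neutrophil antigen Ly6g was at 0 to 0.0486 RPKM in all 13 libraries, and the neutrophil elastase Elane was at 0 in every library of the LPS study. Ccr2, the receptor that brings monocytes into tissue, was at 0.692, 0.456 and 0.512 RPKM in LPS libraries, against 1.46, 1.33, 0.413 and 0.433 RPKM in their saline libraries, and at 0.0834, 0.0975 and 0.174 RPKM in Poly(I:C) libraries, against 0.158, 0.172 and 0.117 RPKM in theirs. The summed level of the 22 markers ran from 27.9 to 32.5 RPKM in LPS libraries, from 13.2 to 39.3 RPKM in their saline, from 9.82 to 19.8 RPKM in Poly(I:C) libraries and from 5.76 to 7.64 RPKM in theirs. The part of these cells in the values of Lcn2 and Plac8 was not tested.

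Promoter sequences were examined for the 22 named genes called in the difference, of which 16 had an entry in the RefSeq table (GRCm38.p6), a window of 250 bases before to 50 bases after the transcript start. They were searched on both strands for GAAANNGAA, the core of the interferon-stimulated response element, and for GGANTTTCC, part of some NF-kB site forms. The first motif was in the windows of 3 of 8 genes with the lower LPS effect, 1 of 8 with the higher, and 9.76% of all 27025 genes. The second was in none of the 16 and in 1.45% of all genes. With no match of the second motif there was no overlap between them. A match describes letters, not a bound site. The 4 windows with a match are shown because they carry the response element letters, which are in capitals; where they start with TT the match is on the other strand. Those of Saa3 (chr7:46715627-46715926, minus strand), Stat2 (chr10:128270248-128270547, plus), Rsad2 (chr12:26456403-26456702, minus) and Ddx60 (chr8:61927837-61928136, plus) read as follows.
Saa3: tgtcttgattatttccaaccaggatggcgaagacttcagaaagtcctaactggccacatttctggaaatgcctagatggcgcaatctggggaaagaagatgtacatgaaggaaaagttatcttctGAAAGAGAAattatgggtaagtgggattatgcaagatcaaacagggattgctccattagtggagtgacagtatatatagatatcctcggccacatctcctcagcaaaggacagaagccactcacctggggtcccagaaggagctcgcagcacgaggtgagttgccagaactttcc
Stat2: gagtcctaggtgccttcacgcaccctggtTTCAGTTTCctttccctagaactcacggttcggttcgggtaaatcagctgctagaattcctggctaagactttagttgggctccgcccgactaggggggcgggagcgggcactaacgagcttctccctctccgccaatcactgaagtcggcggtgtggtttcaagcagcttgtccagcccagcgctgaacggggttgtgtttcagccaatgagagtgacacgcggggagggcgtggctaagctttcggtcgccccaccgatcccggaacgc
Rsad2: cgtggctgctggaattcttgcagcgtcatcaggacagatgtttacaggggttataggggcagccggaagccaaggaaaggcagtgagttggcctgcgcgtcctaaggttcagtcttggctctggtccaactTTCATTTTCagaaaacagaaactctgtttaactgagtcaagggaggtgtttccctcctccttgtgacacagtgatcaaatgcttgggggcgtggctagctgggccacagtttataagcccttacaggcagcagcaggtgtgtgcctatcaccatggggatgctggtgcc
Ddx60: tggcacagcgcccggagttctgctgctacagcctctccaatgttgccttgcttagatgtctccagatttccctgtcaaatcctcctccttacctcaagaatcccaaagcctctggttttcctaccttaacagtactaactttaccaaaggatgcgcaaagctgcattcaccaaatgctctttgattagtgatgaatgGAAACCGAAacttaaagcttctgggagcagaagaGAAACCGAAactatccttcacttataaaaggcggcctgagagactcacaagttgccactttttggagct

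The matches began 125, 221 and 119 bases before the start in Saa3, Stat2 and Rsad2. Ddx60 held 2 matches with the same letters, beginning 53 and 19 bases before its start. Ddx60 was at 1.10, 0.867 and 0.757 RPKM in LPS libraries, against 0.862, 0.746, 0.757 and 0.649 RPKM in their saline libraries, and at 3.74, 4.37 and 1.73 RPKM in Poly(I:C) libraries, against 0.287, 0.163 and 0.319 RPKM in theirs. Its LPS effect of 0.12 did not pass the test, and it rose by 1.71 after Poly(I:C). Saa3, with 1 match, had the opposite difference.

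In the fit of all 13 libraries most of what Poly(I:C) raised was also raised by LPS. The LPS effect was called in 2704 genes (19.5%) and the Poly(I:C) effect in 441 (3.18%). Of the 423 genes that rose after Poly(I:C), 389 (92%) also rose after LPS, against 18.6% of all genes tested. These were 15.1% of the 2576 that rose after LPS. The comparisons share no libraries, but both come from 1 fit with a shared estimate of the spread. The mean level of homeostatic microglia genes was also higher in Poly(I:C) libraries (4.14 to 4.50) than in their saline (3.83 to 3.88). LPS libraries (5.51 to 5.92) lay within the range of theirs (4.80 to 6.21), above saline libraries 3 and 4 (4.80 and 4.93). The part of this level in the overlap was not tested. Without saline libraries 3 and 4 of the LPS study 1325 genes rose after LPS and 1057 after Poly(I:C). Their overlap in that fit was not examined. Within the 389 the LPS effect was the higher in 256 and the lower in 133, and 9 were called in the difference, 2 higher and 7 lower. For 148 of them the 95% interval of the difference lay within 1 log2 unit either way. Over all 13883 genes the effects had a Pearson correlation of 0.75 and a Spearman correlation of 0.65, a description across genes, which are not independent. With median-ratio scaling LPS called 2078 genes higher and 454 lower, against 2576 and 128 without it.

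Chemokines of the monocyte-attracting group were among the genes that rose most after both. Ccl12, a ligand of CCR2, was at 306, 261 and 564 RPKM in LPS libraries, against 12.1, 18.6, 8.08 and 4.72 RPKM in their saline libraries, and at 169, 127 and 226 RPKM in Poly(I:C) libraries, against 2.43, 2.84 and 2.30 RPKM in theirs. Every treated library was above every saline library. The effects were 5.05 after LPS and 5.60 after Poly(I:C), with a difference of -0.55 (-1.73 to 0.64). Ccl2, another CCR2 ligand, rose by 3.05 after LPS and by 2.89 after Poly(I:C), a difference of 0.16 (-0.68 to 0.99). Cxcl10, an interferon-inducible T cell attractant, rose by 3.92 and 2.62. It was at 11.3, 21.3 and 34.6 RPKM in LPS libraries, against 0.492, 0.745, 0.197 and 0.272 RPKM in their saline libraries, and at 3.44, 9.44 and 7.11 RPKM in Poly(I:C) libraries, against 0.176, 0.186 and 0.161 RPKM in theirs. Its difference of 1.30 (0.29 to 2.32) had an adjusted p of 0.435.

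Other genes that rose strongly after both were Ifi30 (a lysosomal thiol reductase for antigen processing), Tspo (the mitochondrial ligand target of microglial PET tracers), Fcgr4 (an activating IgG receptor) and Gpr84 (a receptor for medium-chain fatty acids). Their LPS effects were 3.08, 2.52, 2.73 and 3.45, their Poly(I:C) effects 3.14, 2.53, 2.50 and 2.52, and their differences -0.06, -0.01, 0.23 and 0.93. The intervals of these differences reached from -0.89 for Ifi30 to 1.97 for Gpr84, so differences of about 1 log2 unit were within error. Ifitm3, which blocks the entry of enveloped viruses, rose by 3.15 after LPS and 4.83 after Poly(I:C), and its difference of -1.68 (-2.69 to -0.66) missed the threshold (adjusted p = 0.292).

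**Figure D3:**
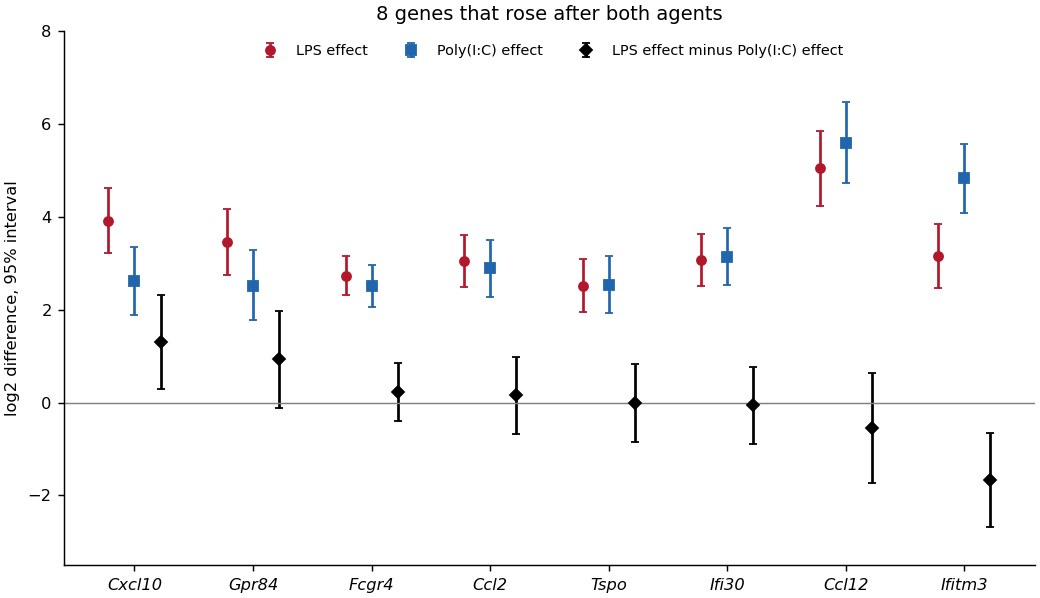
LPS effect, Poly(I:C) effect and their difference, in log2 units with 95% intervals from limma, for the 8 genes with the largest smaller effect among those that rose after both agents. The intervals of the difference include 0 for Gpr84, Fcgr4, Ccl2, Tspo, Ifi30 and Ccl12, and Cxcl10 and Ifitm3 lie on opposite sides of it, neither called after adjustment.

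The sensors of the agents showed no called difference in the fit of all 13 libraries, where 0.194% of all genes were called. Of 13 tested genes of endotoxin sensing and Toll-like receptor signalling, none was called in the difference, 7 rose after LPS (background 18.6%) and 2 after Poly(I:C) (background 3.05%). Without saline libraries 3 and 4 of the LPS study 1 was called lower and 7 rose after Poly(I:C) (90 and 1057 of 13932 over all genes). Tlr2, the receptor for bacterial lipoproteins, rose by 1.93 after LPS and had 0.69 after Poly(I:C), with a difference of 1.24 (0.44 to 2.04, adjusted p = 0.332). Cd180, an inhibitory relative of TLR4, had 0.51 after LPS and rose by 1.88 after Poly(I:C), a difference of -1.37 (adjusted p = 0.401). Among 15 tested genes of nucleic acid sensing none was called in the difference, 8 rose after LPS (background 18.6%) and 6 after Poly(I:C) (background 3.05%). Without those 2 libraries 4 were called lower, 4 rose after LPS and 11 after Poly(I:C) (90, 1325 and 1057 of 13932 over all genes). Voom on reads called 2 lower (25 of 13883 over all genes). Tlr3, Ifih1 and Ddx58, the receptors of double-stranded RNA, rose by 1.15, 1.46 and 1.52 after Poly(I:C), and their differences of -0.77, -0.79 and -0.90 had adjusted p of 0.477, 0.205 and 0.131. LPS raised Ifih1 and Ddx58, by 0.68 and 0.62, and its effect on Tlr3 of 0.38 did not pass the test.

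No antigen presentation gene was called in the difference in the fit of all 13 libraries (background 0.194%). Of 14 tested genes of MHC class I and the immunoproteasome 10 rose after LPS with a median of 0.90 (background 18.6%) and 13 after Poly(I:C) with a median of 1.57 (background 3.05%). H2-Q6 and H2-T23, nonclassical class I genes, had differences of -0.88 and -0.90 (adjusted p = 0.104 and 0.491). Without saline libraries 3 and 4 of the LPS study 4 of the 14 were called lower, and 6 rose after LPS with a median of 0.43. Over all 13932 genes of that fit these counts were 90 and 1325. Reads of class I genes can be shared between near-identical copies, so single members are uncertain. Of 7 tested class II genes 2 rose after LPS (background 18.6%) and none after Poly(I:C) (background 3.05%), and the median difference was -0.02. Without those 2 libraries 1 rose and 3 fell after LPS and 2 rose after Poly(I:C) (1325, 126 and 1057 of 13932 over all genes). The median difference was then -0.69.

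None of 23 homeostatic microglial genes was called in the difference (background 0.194%), whose median was -0.30. After LPS 2 rose and 2 fell (background 18.6% and 0.922%), and after Poly(I:C) 2 rose and none fell (background 3.05% and 0.13%). P2ry12, the ADP receptor of resting microglia, was at 75.1, 113 and 66.9 RPKM in LPS libraries, against 270, 339, 108 and 109 RPKM in their saline libraries, and at 25.6, 23.9 and 29.1 RPKM in Poly(I:C) libraries, against 32, 34.8 and 34.4 RPKM in theirs. It fell by 1.12 after LPS, had -0.36 after Poly(I:C), and its difference was -0.76 (-1.92 to 0.40). The LPS range overlapped that of saline libraries 3 and 4 and not that of 1 and 2. Without libraries 3 and 4, 5 of the 23 genes were called lower in the difference with a median of -0.96, 6 fell after LPS and 6 rose after Poly(I:C). Over all 13932 genes of that fit these counts were 90, 126 and 1057. Without saline library 1 alone, or 2 alone, none of the 23 fell after LPS. Tmem119 and Trem2 had differences of -0.18 and -0.24, and Apoe, an apolipoprotein of the disease-associated state, had 0.44 (-0.58 to 1.47).

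Several groups had many members that rose after LPS and none called in the difference. Over all genes 0.194% were called, so in lists of this size none called is near the share over all genes. All 55 cytosolic ribosomal protein genes rose after LPS, with a median effect of 1.52 (background 18.6%), and 25 rose after Poly(I:C), with a median of 1.00 (background 3.05%). Their median difference was 0.52, and 0.12 without saline libraries 3 and 4 of the LPS study. Without them 52 rose after LPS and 47 after Poly(I:C) (1325 and 1057 of 13932 over all genes). Saline libraries 3 and 4 were also low in this list, with means of 2.94 and 2.85 on the log2 scale against 3.62 and 3.82 in libraries 1 and 2. Of 44 oxidative phosphorylation genes 32 rose after LPS (background 18.6%) and 3 after Poly(I:C) (background 3.05%), with a median difference of 0.41. Without those 2 libraries 19 rose after LPS and 10 after Poly(I:C) (1325 and 1057 of 13932 over all genes), and the median was 0.11. Of 19 glycolysis genes 10 rose after LPS (background 18.6%) and none after Poly(I:C) (background 3.05%), with a median difference of 0.51. Without those 2 libraries 6 rose after LPS and 4 after Poly(I:C) (1325 and 1057 of 13932 over all genes), and the median was 0.25. Of 12 cell cycle genes 10 rose after LPS (background 18.6%) and 8 after Poly(I:C) (background 3.05%), with medians of 1.48 and 1.35. Mcm5, a subunit of the replicative helicase, was at 3.55, 5.31 and 6.50 RPKM in LPS libraries, against 0.399, 0.441, 0.263 and 0.211 RPKM in their saline libraries, and at 3.46, 2.27 and 3.13 RPKM in Poly(I:C) libraries, against 0.203, 0.289 and 0.157 RPKM in theirs. Both treated groups stood clear of their controls, and the difference was 0.49 (-0.01 to 0.98).

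Disease-associated microglial genes and complement genes had members that rose after each agent. Over all genes 0.194% were called in the difference, the background for each list with none called below. Of 24 tested disease-associated genes 13 rose after LPS (background 18.6%) and 6 after Poly(I:C) (background 3.05%), with none called in the difference and a median of 0.05. Without saline libraries 3 and 4 of the LPS study 1 was called higher and 1 lower, 13 rose after Poly(I:C), 2 fell after LPS, and the median was -0.26. Over all 13932 genes of that fit these counts were 16, 90, 1057 and 126. Msr1, a scavenger receptor, had the smallest p of this list. It averaged 14.5 ± 3.25 RPKM in LPS libraries (SD, n = 3) and 1.10 ± 0.772 RPKM in their saline libraries (n = 4), and 1.61 ± 0.311 RPKM in Poly(I:C) libraries and 0.237 ± 0.0676 RPKM in theirs (n = 3 each), a difference of 1.86 (1.10 to 2.62, adjusted p = 0.0670). Of 11 tested complement genes 10 rose after LPS (background 18.6%) and 5 after Poly(I:C) (background 3.05%), with medians of 1.22 and 1.21. Without those 2 libraries 8 rose and 1 fell after LPS, with a median of 0.70, and 8 rose after Poly(I:C) (1325, 126 and 1057 of 13932 over all genes). C5ar1, the receptor of the complement fragment C5a, rose by 2.49 after LPS and 1.55 after Poly(I:C), a difference of 0.94 (adjusted p = 0.541). Of 25 lysosome and phagocytosis genes 10 rose after LPS (background 18.6%) and 7 after Poly(I:C) (background 3.05%), with none called in the difference. Without those 2 libraries 2 were called lower, 7 rose after LPS and 15 after Poly(I:C) (90, 1325 and 1057 of 13932 over all genes). Of 24 cholesterol and lipid handling genes 2 rose after LPS (background 18.6%) and none after Poly(I:C) (background 3.05%), with none called in the difference. Of 20 immediate early and heat shock genes 6 rose after LPS (background 18.6%) and 2 after Poly(I:C) (background 3.05%), with a median difference of 0.45 and none called.

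**Figure D4:**
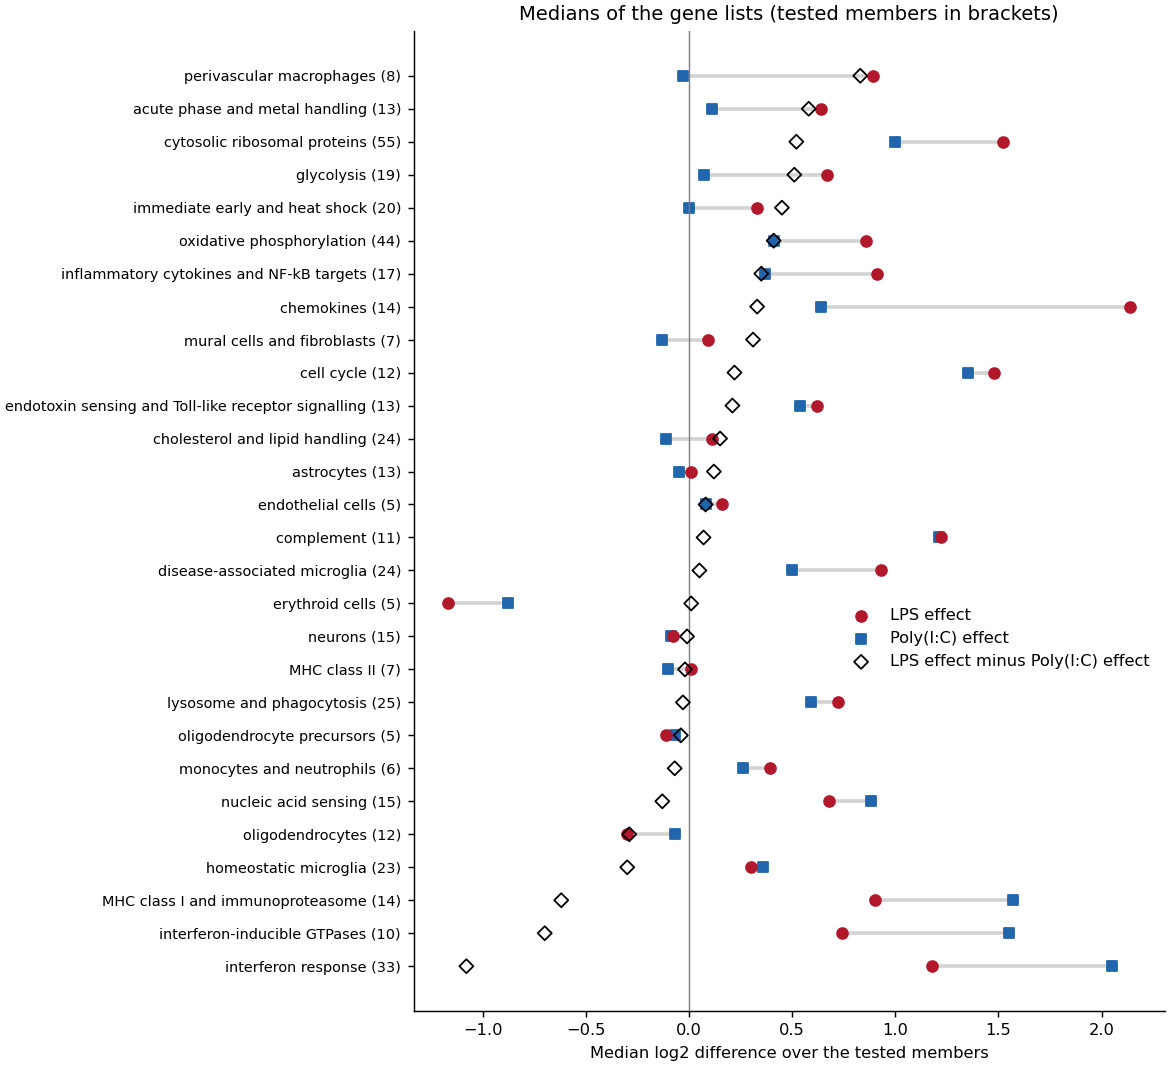
Median over the tested members of each gene list with at least 5 of them: LPS effect (red circles), Poly(I:C) effect (blue squares) and the difference of effects (open diamonds), in log2 units. The interferon response list has the lowest median difference, -1.08, and the perivascular macrophage list the highest, 0.83.

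Markers of other cells were examined as well. Perivascular macrophages, which also use the Cx3cr1 promoter, are marked here by 11 genes, of which 8 were tested. None was called in the difference (background 0.194%), whose median was 0.83, and 0.26 without saline libraries 3 and 4 of the LPS study. After LPS 4 rose (background 18.6%), and after Poly(I:C) 1 did (background 3.05%). Lyve1, a hyaluronan receptor, was at 9.70, 11.8 and 12.9 RPKM in LPS libraries, against 6.36, 7.05, 2.21 and 2.20 RPKM in their saline libraries, and at 1.49, 0.736 and 1.62 RPKM in Poly(I:C) libraries, against 1.36, 1.04 and 1.17 RPKM in theirs. The 2 low saline libraries were those low in microglial genes. The summed level of the 11 genes was 58.7 to 75.3 RPKM in LPS libraries, 17.9 to 61.1 RPKM in their saline, 7.74 to 11.6 RPKM in Poly(I:C) libraries and 9.01 to 10.4 RPKM in theirs. Their part in the values of the LPS-raised genes was not tested.

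Neuronal transcripts were present in all libraries, and none of 15 neuron genes was called in any effect. Astrocyte, oligodendrocyte precursor, endothelial, mural, ependymal, lymphocyte and erythroid markers had no call in the difference (background 0.194%), over 13, 5, 5, 7, 2, 2 and 5 tested members. Of 12 oligodendrocyte genes 5 fell after LPS (background 0.922%) and none passed the test after Poly(I:C) or in the difference. The median difference of the 12 was -0.29. After LPS 3 fell when saline libraries 3 and 4 of the LPS study were left out (126 of 13932 over all genes). With the mean level of neuron, astrocyte and oligodendrocyte markers as a covariate 99 genes were called, 60 higher and 39 lower, and with that of the homeostatic microglia list, a choice made after seeing the data, 693, of which 630 were higher. All 27 genes were among the calls in both. The microglial level was higher in every library of the LPS study than in any of the Poly(I:C) study, so it cannot be told apart from the study. With it in the limma fit 0 genes were called between the saline groups, while 4581 had an unadjusted p under 0.05.

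**Figure D5:**
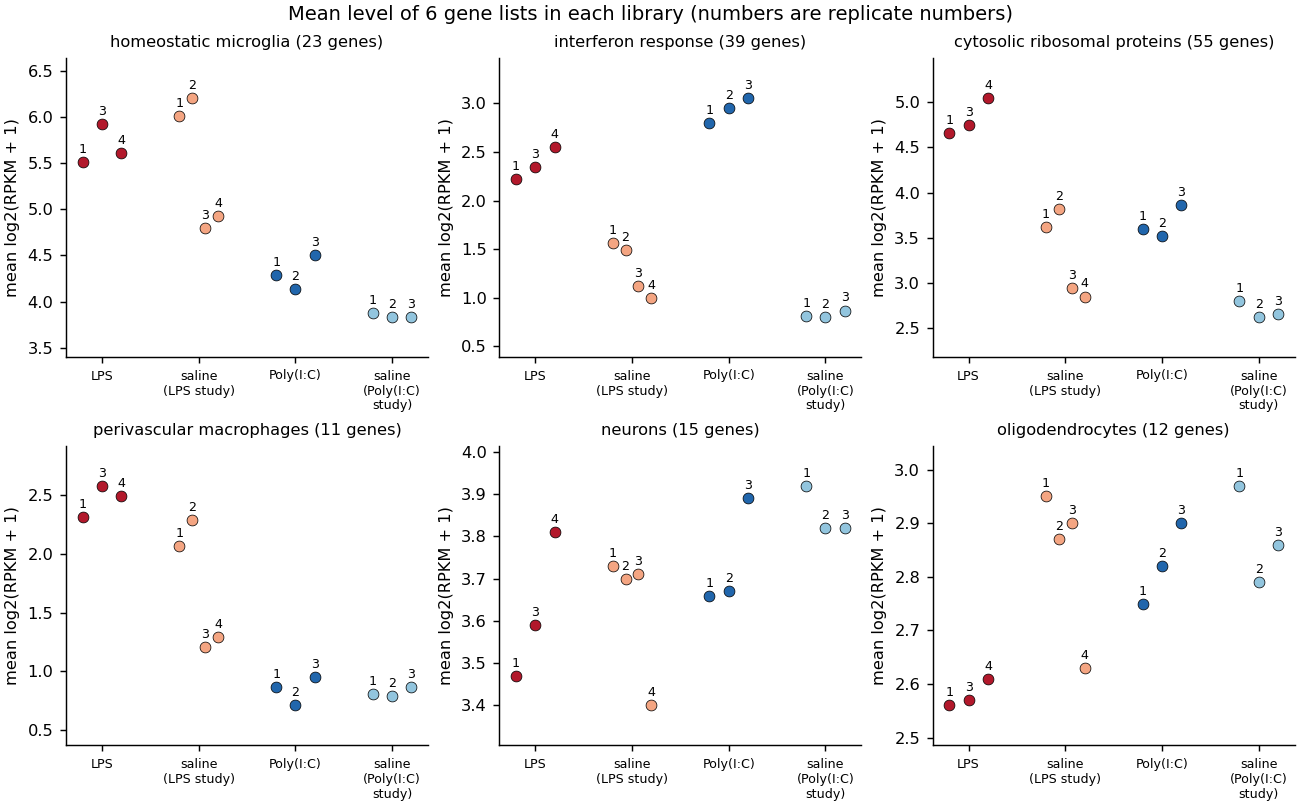
Mean log2(RPKM + 1) of 6 gene lists in each of the 13 libraries, numbered by replicate. Homeostatic microglia genes range from 3.83 in saline libraries of the Poly(I:C) study to 6.21 in a saline library of the LPS study, with saline libraries 3 and 4 of the LPS study below 1 and 2 there and in the interferon, ribosomal and perivascular lists.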

How the data were processed

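Ribosome-bound RNA of microglia was sequenced by the authors, and the deposited values are RPKM per gene for 43346 genes. Per the submitters' processing notes the tools were CASAVA, TopHat2 and featureCounts with the mm10 build; versions and strandedness are not given in the sources used here. Here 27 symbols that had turned into dates were restored, and 59 symbols stand under more than 1 identifier. All 37 mitochondrial genes were at 0. RPKM is not a count, so limma 3.58.1 in R 4.3.3 (empirical Bayes with trend) was fitted on log2(RPKM + 1) to 4 groups and 13 libraries, with 9 residual degrees of freedom, for genes averaging 1 RPKM or more; p-values were adjusted by Benjamini-Hochberg over all genes tested and called under 0.05. Reads were recovered from the RPKM steps (at least 99.99% of values whole within 0.01 read) for depth and for limma voom as an alternative. Intervals of effects are 95% intervals from limma. The steps of the fit were run on simulated libraries modelled on the saline group of the Poly(I:C) study. These had no difference between the studies and no changed genes with saline levels near 0. They cannot vouch for calls of such genes.

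Named genes were the 12 most changed called genes in each direction, filled by p where fewer were called, up to 3 of each list by p, the 8 strongest that rose after both agents, and 12 fixed genes. The members and the 30 lists were chosen with earlier results of these data known. Alternatives were another pseudocount, filter and scaling, voom, a spread per study, a replicate block, a carry-over covariate and leaving out libraries. Leaving out saline libraries 3 and 4 of the LPS study together and the microglial level covariate were added after seeing the data. Promoters came from the RefSeq table. Figures were drawn with matplotlib 3.10.9. Some of the genes that the naming rule picks are not reported here.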

Additional observations from a re-analysis of the deposited data

Results flagged for a closer look

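Outlying libraries were looked for in the group of 4, the saline RiboTag libraries of the LPS study, over 40 genes and 30 lists, and 7 of these 70 had a library whose gap to its nearest neighbour exceeded Dixon's 95% critical value for the share of the range. Chance gives about 1 in 20. Library 3 was apart for Abhd11, with 0.879 RPKM. Library 2 was apart for Plac8 with 0.150 RPKM and for Rsad2 with 0.660 RPKM. Library 4 was apart in mean log2 level for 4 lists, with 1.68 for immediate early and heat shock genes, 3.40 for neurons, 0.82 for mural cells and fibroblasts and 1.42 for ependymal cells and choroid plexus.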

How the results depend on the processing

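The difference of effects had 27 calls. It had 15 with a pseudocount of 0.1, 45 with no filter on low values, 2 at a mean of at least 5 RPKM, 49 with median-of-ratios scaling, 99 with the carry-over covariate, 106 without saline libraries 3 and 4 of the LPS study, 693 with the microglial level covariate, and 12 to 33 when 1 library was left out. With limma voom on the recovered reads it had 25, 0 higher and 25 lower. The LPS effect had 2704, with 1001 at 5 RPKM, 4669 with the carry-over covariate, 1451 without those saline libraries, 822 at 2-fold or more, 1720 in a fit of its own study and 1476 to 3323 with 1 library left out, the lowest without LPS library 4. The Poly(I:C) effect had 441, with 239 at 5 RPKM, 896 with a spread per study, 1061 with the carry-over covariate, 1094 without those saline libraries, 878 in its own study and 204 to 619 with 1 library left out, the lowest without Poly(I:C) library 3. The saline groups differed in 4430 genes, in 2881 with no filter, 2192 at 5 RPKM, 737 at 2-fold or more, 0 with the microglial level covariate (limma; 4581 genes had p below 0.05 before adjustment) and 1443 to 4910 with 1 library left out. Hcar2 reversed with voom, to -0.28 (adjusted p = 0.984). The cause was not tested. Low levels limit the genes near 1 RPKM, which the pseudocount compresses.

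Replicate numbers are shared between a treated group and its saline group, but the deviations of same-numbered libraries correlated at -0.37, -0.24 and -0.56 in the LPS study and at 0.10, 0.11 and -0.14 in the Poly(I:C) study, so the numbers were not taken to pair the libraries. With the number as a replicate block, which leaves 4 residual degrees of freedom, 5 genes were called in the difference and 234 in the Poly(I:C) effect. All 5 had the higher LPS effect, with Saa3, Cxcl13, Lcn2 and Il1b among them. None of the 15 genes with the lower LPS effect was called with the block, the interferon response genes included. No paired analysis was possible for the saline groups because the blocks lie within the studies.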
